A study of Mus musculus with 2084 samples.

Results

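The genes described here are the 10 that make, carry and interconvert serine and glycine, taken by name from the 35606 gene identifiers of the main count table of single cells from the adult mouse brain. Slc1a4, Slc7a10 and Slc1a5 encode carriers that move serine and other small neutral amino acids across the cell membrane. Phgdh, Psat1 and Psph encode the enzymes of serine synthesis, Srr encodes serine racemase, Shmt1 and Shmt2 encode the enzymes that pass a carbon from serine to folate, and Gldc encodes the decarboxylase of the glycine cleavage system. All 10 passed the filter on low counts in every fit.

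RNA was read by Smart-seq3, as the transcriptome part of an assay that also reads the epigenome, in cells sorted from the ventricular-subventricular zone (vSVZ, the stem cell niche beside the lateral ventricle), the striatum, the cortex and the olfactory bulb. The arms were TiCY-IFN(A/G)R KO mice 2 d after ischemia (letter pJ), TiCY mice 2 d (pI) and 21 d (pH) after ischemia, IFN(A/G)R KO naive mice (pJ), TiCY naive mice (pM), WT naive mice that carry a TCF-Lef reporter (pL) and WT naive mice (pA to pF). In TiCY mice, tamoxifen given at 2 months of age switches on eYFP in stem cells that express Tlx and in their progeny. The label is meant to mark that lineage, and how strictly it does so was not tested here. Ischemia was an occlusion of both carotid arteries 2 weeks after tamoxifen, and WT mice had neither. The naive knockouts were not labelled TiCY, so the knockout comparison over time also sets TiCY mice against mice that were not. Each labelled sample is 1 cell, and a letter stands for cells of 1 mouse or of pooled mice, so letters were the replicates. The p-values measure the spread between letters, except in the ischemia fits described further on, where they rest on a trend over genes.

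The labels name quiescent neural stem cells (qNSC1 and qNSC2), activated ones (aNSC), transit amplifying progenitors (TAP), neuroblasts, oligodendrocytes and astrocytes of the vSVZ, striatum and cortex. In all, 1981 labelled cells in 11 letters were used, with 3771 to 1842234 counts each (median 160621), and median depth per cell ran from 120498 counts in pD to 1000343 in pB. Marker genes set some labels apart and overlapped between others. The 6 astrocyte markers summed to 27220 to 34910 CPM (counts scaled by the library total) in astrocytes, to 10190 to 54040 in quiescent stem cells, to 94.2 to 934 in neuroblasts and to 263 to 928 in oligodendrocytes. Microglial markers stayed at or under 47.2 CPM in all of these. Oligodendrocyte markers summed to 40150 to 72500 CPM in oligodendrocytes and to at most 236 CPM in the other types. Astrocytes and quiescent stem cells overlapped in the astrocyte markers and in those of quiescent stem cells, at 283 to 1118 and 181 to 1250 CPM. TAP and neuroblasts overlapped in neuroblast markers, at 985 to 6271 and 1851 to 8128 CPM, and in proliferation markers, at 1397 to 7075 and 0 to 1474 CPM. The letter pD stood apart, with astrocyte markers at 18600 CPM in its qNSC1 against 39190 to 54040 in those of the other letters, and Dcx, a neuroblast gene, at 244 CPM in its 7 neuroblasts against 1187 to 4229 in those of the other WT letters. Ifngr1 was at 0.0981 to 2.14 CPM in the knockout sorts, against 9.03 to 34.2 CPM in the TiCY sorts, and Ifnar1 at 8.90 to 21.4 CPM against 33.1 to 84.7 CPM, which checks those labels.

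Serine is made from a glycolytic intermediate by Phgdh, Psat1 and Psph in turn. In the adult brain astrocytes make much of it and pass it to neurons, and Srr turns a part of it into D-serine, a co-agonist of NMDA receptors. Serine gives its carbon to folate and leaves glycine, and the glycine cleavage system, in which Gldc acts first, takes a further carbon from glycine.

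The start regions of the 3 synthesis genes are shown because their levels correlated across the WT sums described further on. RefSeq entries on GRCm38.p6 gave start regions for 9 of the 10 members. CCAAT, a box bound by the factor NF-Y, was searched on both strands in the 250 bases before each start. It was found in 6 of those 9, against 33.8% of 32851 entries of the same length. A member counts if any of its entries matched, whereas the share is per entry, so the units differ. TGATGNAA, the letters of an ATF4 element, was in none of the 9, against 3.45% of all entries. Each sequence is the 250 bases before the start, 5′ to 3′ on the strand of the gene, and capitals mark CCAAT or its reverse complement. All 3 genes lie on the minus strand, with these regions at chr3:98339970-98340219 (Phgdh), chr19:15925060-15925309 (Psat1) and chr5:129787254-129787503 (Psph). The gene positions used further on set other starts, at 98339990 for Phgdh, 15947337 for Psat1 and 129787449 for Psph. By those the Psat1 region lies inside the gene, and the regions of Phgdh and Psph partly do.
Phgdh: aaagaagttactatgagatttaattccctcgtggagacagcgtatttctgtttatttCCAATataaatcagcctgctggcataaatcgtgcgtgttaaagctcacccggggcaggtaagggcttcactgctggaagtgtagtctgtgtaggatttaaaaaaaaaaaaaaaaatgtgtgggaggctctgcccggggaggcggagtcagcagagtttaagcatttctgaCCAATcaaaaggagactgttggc
Psat1: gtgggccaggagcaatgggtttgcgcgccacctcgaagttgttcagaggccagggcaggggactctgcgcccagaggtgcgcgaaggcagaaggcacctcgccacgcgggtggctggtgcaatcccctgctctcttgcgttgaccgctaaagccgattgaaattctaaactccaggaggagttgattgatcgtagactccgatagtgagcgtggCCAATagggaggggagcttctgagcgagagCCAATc
Psph: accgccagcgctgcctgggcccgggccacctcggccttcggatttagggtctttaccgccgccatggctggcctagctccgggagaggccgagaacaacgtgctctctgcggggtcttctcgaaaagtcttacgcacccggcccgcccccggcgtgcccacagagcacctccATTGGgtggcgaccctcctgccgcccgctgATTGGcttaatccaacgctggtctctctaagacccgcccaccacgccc
The matches began 193 and 23 bases before the start of Phgdh, 36 and 6 before that of Psat1, and 78 and 48 before that of Psph. Those of Phgdh and Psat1 were on the strand of the gene and those of Psph on the other. Another entry for Psat1, with a later start, held no match. A match describes letters only.

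The first question was how the genes differ along the stem cell lineage of WT mice. Levels there are CPM of summed counts per type and letter, scaled by edgeR's TMM factors, in sums of 3 or more cells. A gene was called at a Benjamini-Hochberg adjusted p below 0.05 over all genes tested in edgeR's quasi-likelihood fit of 22 sums and 14915 genes. Shares of all genes called are given for the main edgeR fits only. Counts called under other tests or settings have no such share beside them and are no result about the members. Where groups are said not to overlap, no share of all genes is given either, and the words describe the values only. The labelled types may rest on these same transcriptomes, so p-values between types describe the labels, whereas the surface sorts below do not depend on the counts.

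Of the carriers, Slc7a10 (Asc-1, an exchanger of small neutral amino acids that also takes D-serine) and Slc1a4 (ASCT1) had their highest means in qNSC1, averaged less in qNSC2 and, within the lineage, had their lowest means in aNSC (Slc7a10) and neuroblasts (Slc1a4). Slc7a10 was at 524, 479, 403, 226 and 754 CPM in the qNSC1 of pA to pE. It was at 215, 74.9, 11.4 and 71.6 CPM in the qNSC2 of pA, pB, pD and pE. In aNSC it was at 0.637, 0.706 and 1.59 CPM in pC, pD and pE, in TAP at 0.542, 3.61 and 5.23 CPM, and in neuroblasts of pA to pD at 0.328, 2.25, 0.423 and 7.37 CPM. On this scale the qNSC1 and qNSC2 values of Slc7a10 did not overlap, and every aNSC, TAP and neuroblast sum lay below every qNSC2 sum. Without TMM factors, as CPM per kilobase of exon, qNSC1 ran from 89.35 to 342 and qNSC2 from 4.94 to 123, which overlap. A pair of 2-cell aNSC sums that were too small for the fit held 6.45 CPM in pA and 90.1 CPM in pB (all of it from 1 cell), with astrocyte markers at 12250 and 24830 CPM against 2996 to 6002 in the aNSC of the fit. Slc1a4 was at 512, 183, 384, 255 and 331 CPM in the qNSC1 of pA to pE and at 32.5, 25.2, 51.3 and 37.5 CPM in the qNSC2 of pA, pB, pD and pE. It stayed at 14.1 to 58.6 CPM in aNSC and 14.1 to 31.2 CPM in TAP, and was at 5.71, 7.50, 17.6 and 3.69 CPM in neuroblasts.

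Between neighbouring stages these carriers were the members called. In qNSC2 against qNSC1, Slc1a4 was lower, averaging 36.6 ± 11 CPM in qNSC2 (SD, n = 4) and 333 ± 126 CPM in qNSC1 (SD, n = 5), with a log2 fold change of -3.18 ± 0.61 (SE, edgeR adjusted p = 0.0411). That was 1 of 10 members, where 0.0805% of all genes were called. Slc7a10 averaged 93.1 CPM in qNSC2 and 477 CPM in qNSC1, which missed the threshold (edgeR adjusted p = 0.329). The groups did not overlap after TMM scaling but did without it. In aNSC against qNSC2, Slc7a10 was lower, averaging 0.979 ± 0.534 CPM in aNSC (SD, n = 3) and 93.1 ± 86.1 CPM in qNSC2 (SD, n = 4), with a log2 fold change of -6.52 ± 1.22 (SE, edgeR adjusted p = 0.0271). There too 1 of 10 members was called, against 0.194% of all genes. Neither call survived leaving out pA, pB, pC or pE, or a fit within pA, pB and pE or within pC and pD. The adjusted p within pA, pB and pE was 0.0535 for Slc1a4 and 0.0550 for Slc7a10, with log2 fold changes of -3.37 and -6.18.

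The 2 hydroxymethyltransferase genes ran the other way in their means. Shmt1, the cytosolic enzyme, averaged 46.3 ± 33.0 CPM in aNSC and 5.40 ± 9.31 CPM in qNSC2, and Shmt2, the mitochondrial one, averaged 43.8 ± 33.9 CPM in aNSC and 7.14 ± 6.82 CPM in qNSC2 (SD, n = 3 and 4). Shmt2 values did not overlap between these types after TMM scaling. Without it they did, with a lowest aNSC value of 5.53 and a highest qNSC2 value of 5.63 CPM per kilobase of exon. Neither Shmt1 nor Shmt2 passed the threshold (edgeR adjusted p = 0.309 and 0.311). Slc1a5 (ASCT2), a carrier of glutamine and other neutral amino acids, averaged 23.4 CPM in aNSC and 4.24 CPM in qNSC2 (adjusted p = 0.474), and was at 0 to 0.918 CPM in the neuroblasts of 4 letters. In TAP against aNSC edgeR called no member and 0% of all genes, and DESeq2 called no member. An unadjusted p under 0.05 was found for 937 of 14915 genes and for 1 member. That member was Gldc, at 5.42, 8.53 and 1.05 CPM in the TAP of pC, pD and pE, against 40.8, 20.2 and 13.6 CPM in their aNSC. In neuroblasts against TAP edgeR called no member, where 0.0939% of all genes were called. An unadjusted p under 0.05 was found for 4 members, and for 1534 of 14915 genes. DESeq2 called Slc1a5 and Psph there as lower in neuroblasts, and the fit within pA, pB and pE called Phgdh, Psat1 and Psph as lower. Within pC and pD none of these was called, and the log2 fold changes of Phgdh, Psat1 and Psph were 0.26, 0.89 and -1.55.

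Across the whole lineage, from quiescent cells to neuroblasts, the genes of serine synthesis and Gldc were low in most sums of the last stage. Against qNSC1, neuroblasts had 5 of 10 members called lower and none higher, where 12.4% of all genes were called in either direction. The median log2 fold change of the 10 members was -3.19, against -0.17 for all genes. Slc7a10 fell to 2.59 ± 3.31 CPM in neuroblasts (SD, n = 4), against 477 ± 192 in qNSC1 (SD, n = 5), and Slc1a4 fell to 8.62 ± 6.17 CPM against 333 ± 126 (log2 fold changes -7.89 ± 1.12 and -5.24 ± 0.68, edgeR adjusted p = 1.1e-04 and 5.9e-05). Psat1, the transaminase of serine synthesis, was at 1.05, 6.59, 16.5 and 24.6 CPM in the neuroblasts of pA to pD, against 324, 308, 211, 75.6 and 401 CPM in the qNSC1 of pA to pE. Its log2 fold change was -4.50 ± 0.88 (SE, edgeR adjusted p = 0.00169), and every neuroblast sum lay below every qNSC1 sum. Psph, the phosphatase that ends the pathway, averaged 6.77 ± 5.62 CPM in neuroblasts and 99.1 ± 36.0 CPM in qNSC1, with a log2 fold change of -3.83 ± 0.69 (edgeR adjusted p = 9.1e-04). Gldc was at 4.92, 3.87, 3.18 and 17.2 CPM in neuroblasts, against 171, 151, 118, 53.8 and 177 CPM in qNSC1, a log2 fold change of -4.29 ± 0.77 (edgeR adjusted p = 9.1e-04). Within pC and pD only Slc1a4 and Slc7a10 stayed called.

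Phgdh, the first and committing enzyme of serine synthesis, turned on 1 letter. It was at 3.08, 3.79 and 21.4 CPM in the neuroblasts of pA, pB and pC and at 413 CPM in those of pD. In qNSC1 of pA to pE it was at 483, 361, 415, 1411 and 518 CPM. The pD neuroblasts were 7 cells, and 63.1% of their Phgdh counts came from 1 cell. The log2 fold change was -2.55 ± 1.04 (edgeR adjusted p = 0.114), and without pD it was -5.51 (adjusted p = 3.7e-04). Letters tended to deviate together across types, and with letter as a block it was -3.90 (adjusted p = 0.00371). With that block 6 members were called, and no share of all genes is given for it. The part of the differing markers of pD in this was not tested. Phgdh differed between the quiescent states by less than the spread between letters, at 648 ± 240 CPM in qNSC2 and 638 ± 437 CPM in qNSC1 (log2 fold change 0.02 ± 0.95, adjusted p = 1).

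Srr and Shmt1 were not called in WT neuroblasts against qNSC1. Srr averaged 30.6 ± 22.9 CPM in neuroblasts and 88.6 ± 44.2 CPM in qNSC1 (adjusted p = 0.227). Shmt1 averaged 35.1 ± 44.0 CPM in neuroblasts and 8.70 ± 12.8 CPM in qNSC1 (adjusted p = 0.332), and the values of both genes overlapped between the types.

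**Figure D1:**
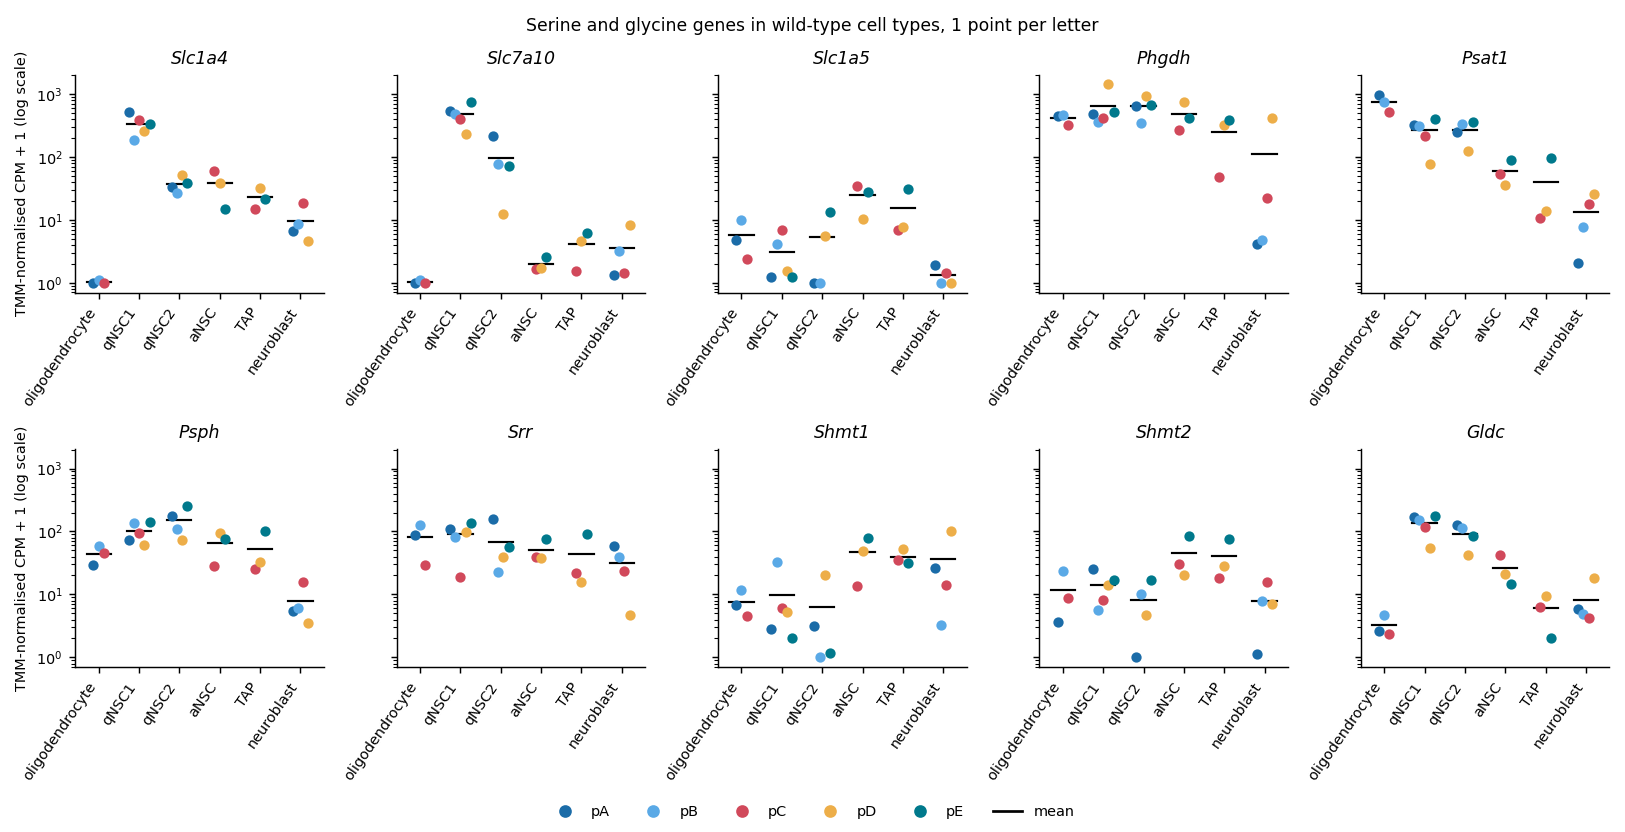
TMM-normalised CPM plus 1 (log axis) of the 10 members in WT oligodendrocytes and in the lineage from qNSC1 to neuroblasts, 1 point per letter and a line at the mean. Slc1a4 and Slc7a10 have their highest means in qNSC1, at 183 to 512 and 226 to 754 CPM, while Psat1 is highest in oligodendrocytes, at 522 to 959 CPM, and the pD neuroblasts lie at 413 CPM of Phgdh, above the other letters.

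Oligodendrocytes had high levels of Phgdh and Psat1, low levels of Gldc and almost no counts of Slc1a4 or Slc7a10. Psat1 was at 959, 742 and 522 CPM in the oligodendrocytes of pA, pB and pC, against 75.6 to 401 CPM in qNSC1. Phgdh was at 453, 458 and 320 CPM in oligodendrocytes, within the range of 361 to 1411 CPM in qNSC1. Against qNSC1, oligodendrocytes had 3 of 10 members called lower and none higher, where 11% of all genes were called. Psat1 was not among them, since its log2 fold change of 1.49 ± 0.77 missed the threshold (edgeR adjusted p = 0.272), although all 3 oligodendrocyte sums lay above all 5 qNSC1 sums. Slc1a4 had 2 counts in the 3 oligodendrocyte sums together, a pooled CPM 5980-fold lower than in qNSC1 with a counting interval of 1650- to 49400-fold (edgeR adjusted p = 4.0e-07). Slc7a10 also had 2 counts there, 10200-fold lower with an interval of 2830- to 84600-fold (edgeR adjusted p = 1.6e-05). Gldc was at 1.61, 3.74 and 1.35 CPM in oligodendrocytes, against 53.8 to 177 CPM in qNSC1, a log2 fold change of -5.86 ± 0.95 (edgeR adjusted p = 2.3e-04). Within pC and pD the Gldc call was lost, at a log2 fold change of -5.93 (adjusted p = 0.197). The 13 TiCY oligodendrocytes of pM, a letter outside the fit, had 357 CPM of Phgdh, 302 CPM of Psat1 and no count of Slc1a4, Slc7a10 or Gldc.

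Levels set against each other per kilobase of exon showed which synthesis enzyme led. Phgdh ranked first of the 10 members in qNSC1, qNSC2, aNSC and TAP, at 235, 279, 197 and 98.1 mean CPM per kilobase. In neuroblasts its mean of 40.6 ± 73.0 CPM per kilobase (SD, n = 4) ran from 1.45 to 150, with the top value in pD, so its rank there rests on that letter. In oligodendrocytes Psat1 was at 142 ± 38.3 and Phgdh at 135 ± 18.3 CPM per kilobase (SD, n = 3), which did not differ beyond their spread. Slc7a10 ranked second in qNSC1, at 219 ± 92.0 CPM per kilobase, which is within the spread of Phgdh (235 ± 135, SD, n = 5 each). Slc1a5 ranked last in both quiescent types and in neuroblasts.

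The surface sorts of pA, pB and pC (NSC, ASTRO, NB and OLIGO, in the words of the labels) do not use the transcriptome, and were fitted together over 14348 genes. By the labels they are mixed. The NSC sorts of pA and pB also hold cells labelled oligodendrocyte, and the NB sort of pC holds cells labelled TAP. In the NSC sort of pB the cells labelled oligodendrocyte are as many as those labelled qNSC1. The part of this makeup in the comparisons was not tested. In the NB sort against the NSC sort 6 of 10 members were called lower and none higher, where 11.8% of all genes were called. Phgdh was among them, at 3.38, 4.61 and 22.5 CPM in the NB sorts of pA, pB and pC, against 466, 293 and 359 CPM in their NSC sorts. Its log2 fold change was -5.22 ± 0.78 (SE, edgeR adjusted p = 0.00129), and the sorts did not overlap. Psat1 averaged 8.71 CPM in the NB sort and 404 CPM in the NSC sort (log2 fold change -5.55 ± 0.96, edgeR adjusted p = 0.00295), and Psph 8.42 and 92.1 CPM (-3.47 ± 0.76, adjusted p = 0.0108). Slc7a10 averaged 1.22 and 303 CPM (-7.88 ± 1.03, edgeR adjusted p = 6.0e-04), Slc1a4 10.3 and 272 CPM (-4.75 ± 1.05, adjusted p = 0.0114) and Gldc 4.2 and 112 CPM (-4.73 ± 0.72, adjusted p = 0.00133). Without pB, Slc7a10 and Gldc were the 2 members still called, and without pA, Slc7a10, Phgdh, Psat1 and Gldc were. DESeq2 also called Shmt1, at 15 CPM in the NB sort and 2.14 CPM in the NSC sort.

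In the OLIGO sort 3 members were called lower, where 6.1% of all genes were called. Slc1a4 had 1 count there, a ratio of 6220-fold with a counting interval of 1120- to 246000-fold (edgeR adjusted p = 4.9e-04). Slc7a10 had 2 counts, a ratio of 3850-fold with an interval of 1070- to 31800-fold (adjusted p = 1.8e-04). Gldc averaged 2.35 CPM in the OLIGO sort and 112 CPM in the NSC sort (log2 fold change -5.52 ± 0.75, edgeR adjusted p = 7.7e-04). Phgdh averaged 407 ± 75.4 CPM in the OLIGO sort and 373 ± 87.4 CPM in the NSC sort (log2 fold change 0.13 ± 0.65), a difference smaller than the spread between letters. Cells labelled oligodendrocyte in the NSC sorts of pA and pB enter each of these comparisons, and their part was not tested. In the ASTRO sort against the NSC sort edgeR called no member, where 0.0906% of all genes were called. There Shmt1 had an unadjusted p under 0.05, as did 1204 of 14348 genes, and was called by DESeq2. Shmt1 was at 27.6, 27.5 and 23 CPM in the ASTRO sorts of pA, pB and pC, against 0.341, 4.35 and 1.74 CPM in their NSC sorts. The labels name the cells of these ASTRO sorts qNSC1, qNSC2, aNSC, TAP or neuroblast, and none an astrocyte. The part of this makeup in the Shmt1 level was not tested.

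**Figure D2:**
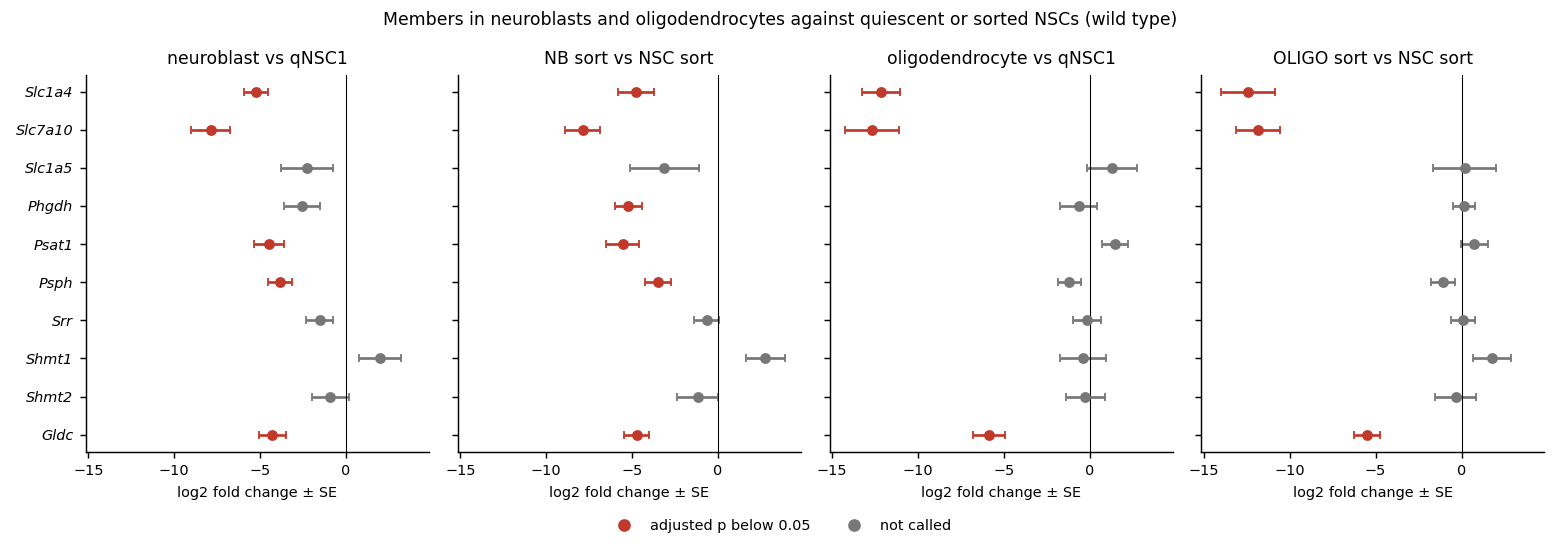
Fitted log2 fold changes with SE of the 10 members for neuroblasts, the NB sort, oligodendrocytes and the OLIGO sort, each against qNSC1 or the NSC sort of WT mice, with called members in red. Slc1a4, Slc7a10 and Gldc are called lower in all 4 panels, and Phgdh in the NB sort alone. The values near -12 rest on 1 or 2 counts and depend on the prior count.

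Naive TiCY (pM) and IFN(A/G)R KO (pJ) cells gave the same stages with other mice and vSVZ astrocytes beside them. They were fitted over 12 sums and 16009 genes, with 1 sum per genotype in each type, so genotype adds to the spread. Neuroblasts against qNSC2 had 7 of 10 members called lower and none higher, where 9.99% of all genes were called. Phgdh was at 1.26 and 1.01 CPM in the neuroblasts of pM and pJ, against 452 and 869 CPM in their qNSC2, a log2 fold change of -9.15 ± 0.82 (edgeR adjusted p = 3.8e-05). Slc1a4 averaged 7.71 and 83.7 CPM (log2 fold change -3.45 ± 0.88, edgeR adjusted p = 0.0256). Psat1 and Slc7a10 had 2 counts each in neuroblasts and Psph had 1, which gave ratios of 215-fold (59.5 to 1780), 191-fold (52.7 to 1580) and 381-fold (68.3 to 15100). Gldc and Shmt2 had no count, and against a floor of 3 counts over the group they were at least 220-fold and at least 13.1-fold lower. Their edgeR adjusted p were 0.00979 for Psat1, 8.3e-04 for Slc7a10, 6.4e-04 for Psph, 0.006 for Gldc and 0.0348 for Shmt2, which was not called with no filter on low counts (adjusted p = 0.0785). Shmt1 had no count in neuroblasts either, at least 11.8-fold lower (edgeR adjusted p = 0.0994). It was called by DESeq2 (adjusted p = 0.0135) and by edgeR with no filter (adjusted p = 0.0468). DESeq2 called 8 members, with no share of all genes given for that test. Srr was at 53.5 and 62.4 CPM in neuroblasts and 52.8 and 68.6 CPM in qNSC2. The median log2 fold change of the members was -8.24 as fitted and -5.75 with those at 0 set to their bound, against -0.86 for all genes.

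In these letters qNSC2 against vSVZ astrocytes had no member called by edgeR or DESeq2, where 0.0125% of all genes were called. An unadjusted p under 0.05 was found for 640 of 16009 genes and for 2 members. Of these members, Slc1a4 was at 78.8 and 88.7 CPM in the qNSC2 of pM and pJ against 308 and 345 CPM in their vSVZ astrocytes. Slc7a10 was at 80.0 and 131 CPM against 359 and 334 CPM. In aNSC against qNSC2 edgeR called no member, where 0.05% of all genes were called, and DESeq2 called Slc7a10, at 8.82 and 27.2 CPM in aNSC against 80.0 and 131 CPM in qNSC2. Psat1 too had an unadjusted p under 0.05 there, as did 1681 of 16009 genes.

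Striatal against vSVZ astrocytes of pM and pJ had no member called by edgeR or DESeq2, none with an unadjusted p under 0.05 and 0% of all genes called. Slc7a10 was at 433 and 761 CPM in striatal astrocytes of pM and pJ, against 359 and 334 CPM in vSVZ astrocytes, and Psph at 51.3 and 58.7 CPM against 81.5 and 106 CPM. Groups held by 1 letter carry no test. For these the values are plain CPM with exact Poisson 95% intervals, which cover counting error only, and a gene past a 2-fold ratio of CPM + 5, among genes at 10 CPM or more in either group, is counted as higher or lower. From 0 to 5 of 10 members lay past that line in the comparisons below, under the share of all genes in some and over it in others. The members are counted out of all 10, whereas the share leaves out genes below 10 CPM in both groups, so the bases differ. These counts are no result about the members. In cortical against striatal astrocytes of pL, 23.4% of all genes lay past that line and 1 member did. It was Slc1a5, at 3.71 CPM (2.20 to 5.86) in cortex and 18.8 CPM (15.3 to 22.8) in striatum. Slc1a4 was at 642 CPM (619 to 665) in cortical and 348 CPM (332 to 364) in striatal astrocytes, short of 2-fold. In WT striatal astrocytes against qNSC1 of pE, where 23.2% of all genes lay past the line, Psat1 was lower at 180 and 384 CPM, Srr lower at 49.0 and 130 CPM and Shmt1 higher at 10.7 and 0.978 CPM. Those 12 striatal cells also held 934 CPM of neuroblast markers, and their part in this was not tested.

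The knockout was set against TiCY in naive cells type by type. In vSVZ astrocytes 2 members were higher in the knockout, where 17.3% of all genes lay past 2-fold. These were Phgdh, at 623 CPM (608 to 637) in KO and 287 CPM (279 to 296) in TiCY, and Slc1a5, at 22.1 and 4.72 CPM. In striatal astrocytes, where 24.4% of all genes lay past the line, no member did, and Phgdh was at 523 CPM in KO and 295 CPM in TiCY. In qNSC2, where the share was 35.5%, Shmt1 alone was lower, at 3.86 CPM in KO and 13.8 CPM in TiCY, and Phgdh was at 837 CPM in KO and 439 CPM in TiCY. Phgdh was thus higher in the KO letter in all 3 types, but letter and genotype cannot be told apart.

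**Figure D3:**
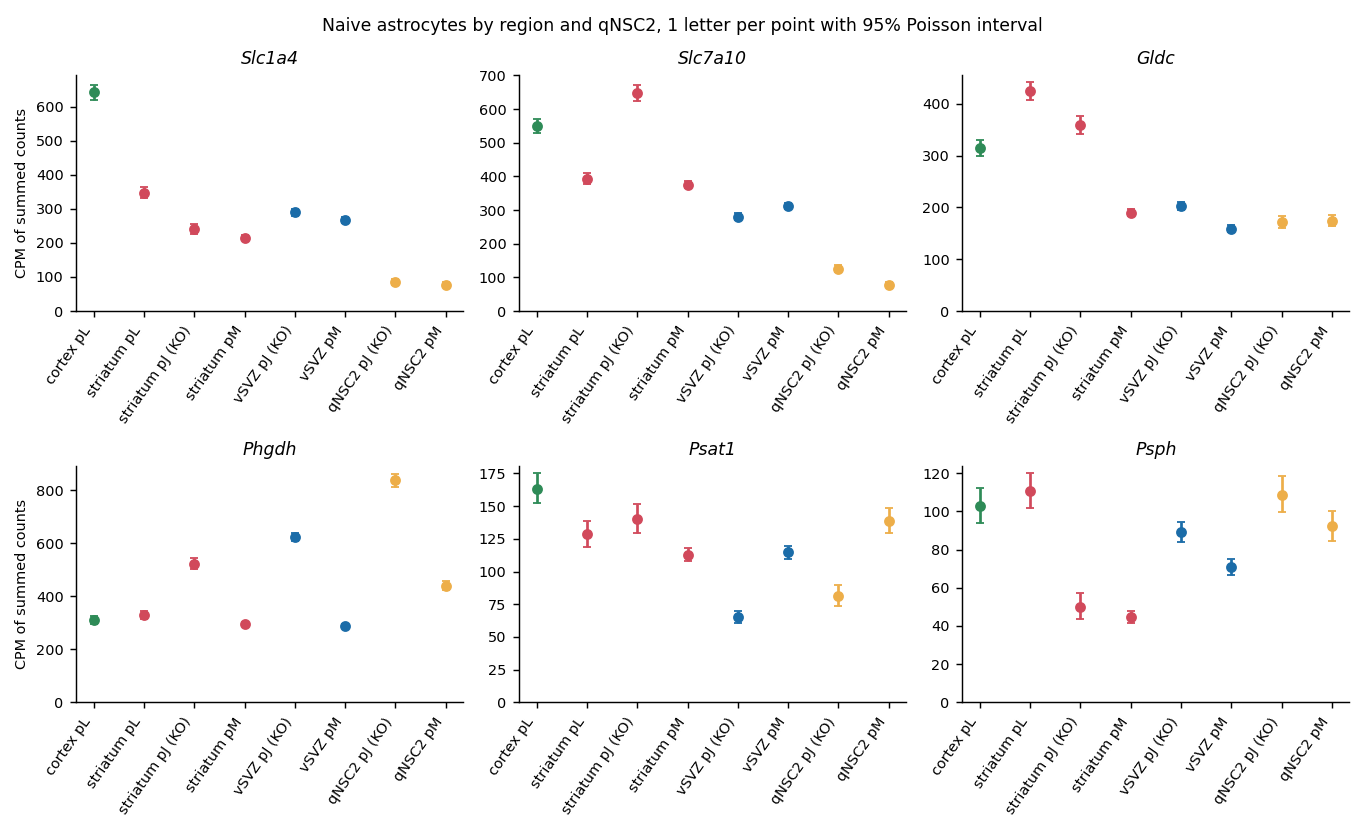
CPM of summed counts, with 95% Poisson intervals, for 6 members in naive cortical, striatal and vSVZ astrocytes and in qNSC2, 1 letter per point (linear axes from 0). Slc1a4 and Slc7a10 are lower in qNSC2, at 76.5 to 126 CPM, than in every astrocyte group, and Phgdh is higher in pJ than in pM in each type.

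After ischemia the GLAST sorts of vSVZ and striatum could be compared across TiCY and knockout mice. The fit of each region held 5 sums (naive pM and pJ, 2 d pI and pJ, 21 d pH) with genotype and time as terms. It left 1 residual degree of freedom, and edgeR took the spread from the trend over genes. The prior degrees of freedom were infinite in both fits. The adjusted p-values therefore rest on that trend alone and do not measure the spread of a gene between letters.

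In the vSVZ sort 5 of 10 members were called at 2 d, 4 lower and 1 higher, where 10.9% of all genes were called. Slc7a10 was at 13.5 and 47.3 CPM at 2 d in TiCY and KO, against 209 and 202 CPM in naive TiCY and KO, a log2 fold change of -3.02 ± 0.44 (SE, edgeR adjusted p = 2.1e-09). Gldc was at 25.4 and 44.3 CPM at 2 d, against 139 and 166 CPM in naive sorts (-2.18 ± 0.42, edgeR adjusted p = 1.4e-05). Srr was at 23.8 and 17.1 CPM at 2 d, against 65.6 and 54.4 CPM in naive sorts (-1.57 ± 0.49, edgeR adjusted p = 0.017). Phgdh was at 85.5 and 439 CPM at 2 d, against 301 and 621 CPM in naive sorts (-1.16 ± 0.40, adjusted p = 0.0417), and its groups overlapped. Shmt1 rose, at 44.8 and 24.0 CPM at 2 d, against 13.1 and 8.06 CPM in naive sorts (1.68 ± 0.59, edgeR adjusted p = 0.0458). Without pH, Slc7a10 and Gldc were the 2 members still called, and with no filter on low counts those and Srr were.

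The makeup of this sort differed between the times. Of its cells in the knockout, 76 of 228 (33.3%) were labelled neuroblasts at 2 d, against 8 of 134 (5.97%) in naive mice, and 36 (15.8%) were vSVZ astrocytes, against 79 (59%). The 6 astrocyte markers summed to 6215 and 10250 CPM at 2 d in TiCY and KO, against 27050 and 22880 CPM in naive sorts, and the 4 neuroblast markers to 3839 and 1684 CPM against 556 and 395 CPM. The part of this in the changes was not tested in the fit, and in a sum over mixed cells fewer cells of a type and less RNA per cell cannot be told apart.

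Labelled types of the knockout, which hold 1 letter each, allow the same times to be compared within a type. In KO vSVZ astrocytes at 2 d against naive ones, where 38.0% of all genes lay past 2-fold, Psat1 was higher at 164 and 64.9 CPM and Shmt1 higher at 16 and 1.27 CPM. Slc7a10, at 195 and 280.5 CPM, Gldc, at 122 and 203 CPM, and Phgdh, at 721 and 623 CPM, lay within 2-fold. In KO qNSC2 at 2 d against naive ones, where the share was 39.9%, Slc7a10 was lower at 51.6 and 126 CPM, Srr lower at 26.3 and 66.0 CPM and Gldc lower at 75.6 and 172 CPM, while Shmt1 was higher at 14.1 and 3.86 CPM. Slc1a4 was at 153 and 85.3 CPM there, within 2-fold. Shmt1 counts in these sums came from few cells, with 48.4% of those in 2 d vSVZ astrocytes and all 19 of those in naive qNSC2 in 1 cell.

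In the striatal sort edgeR called no member at 2 d, where 2.3% of all genes were called, and DESeq2 called Shmt1. An unadjusted p under 0.05 was found for 2 members, and for 2199 of 22409 genes. Shmt1 was at 25.6 and 34.8 CPM at 2 d in TiCY and KO, against 8 and 0 CPM in naive TiCY and KO. Slc7a10 was at 48.8 and 328 CPM at 2 d, against 393 and 678 CPM in naive sorts (log2 fold change -2.03 ± 0.76, edgeR adjusted p = 0.183). The groups did not overlap, but with 2 sums on each side that carries little weight. Srr was at 555 CPM at 2 d in TiCY, but 96.8% of its counts there came from 1 of 122 cells. Without that cell Srr was at 17.7 CPM in plain counts, against 68.8 CPM in naive TiCY.

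In the labelled striatal astrocytes of the knockout, at 2 d against naive, where 32.8% of all genes lay past 2-fold, Slc1a4 was higher at 786 CPM (766 to 807) in 2 d cells and 241 CPM (227 to 256) in naive cells. Shmt1 was higher at 34.0 CPM against no count, and Gldc lower at 126 CPM (118 to 134) against 358 CPM (341 to 376). Slc7a10 was at 483 and 648 CPM, within 2-fold. The 82 and 35 cells share 1 letter, which gives no spread between mice.

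Neurogenic striatal astrocytes, a type labelled only after ischemia, differed from the other striatal astrocytes of the 2 d knockout. Slc1a4 was lower at 115 and 786 CPM, Slc7a10 lower at 48.0 and 483 CPM, Psat1 lower at 79.8 and 171 CPM and Gldc lower at 47.6 and 126 CPM. Slc1a5 was higher at 19.7 and 0.799 CPM. These 5 of 10 members stand beside 43.5% of all genes past 2-fold. Astrocyte markers summed to 8048 CPM in the 27 neurogenic cells and 27550 CPM in the others, and neuroblast markers to 1996 and 44.6 CPM, and their part in this was not tested.

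At 21 d no member lay past 2-fold from naive TiCY in either sort, where 21.2% of all genes did in the striatum and 17.3% in the vSVZ. In the vSVZ sort Slc7a10 was at 156 CPM at 21 d and 206 CPM in naive cells, and Gldc at 159 and 136 CPM. Phgdh was at 567 CPM (557 to 577) at 21 d and 295 CPM (289 to 302) in naive cells, and in the striatal sort at 495 and 295 CPM. Letter and time cannot be told apart here.

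**Figure D4:**
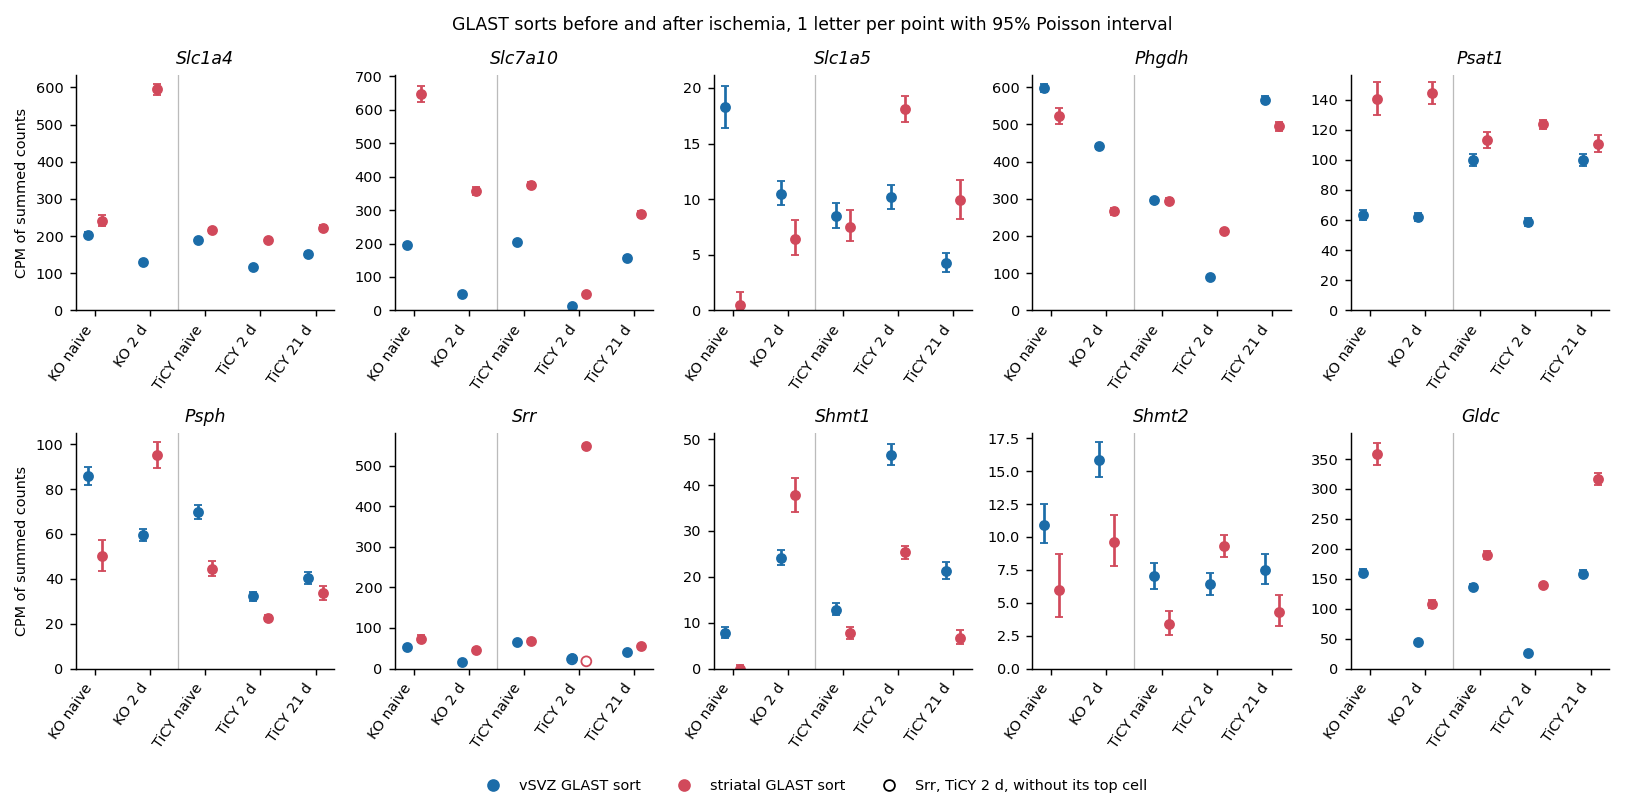
CPM of summed counts, with 95% Poisson intervals, in the GLAST sorts of vSVZ (blue) and striatum (red), for knockout and TiCY mice in order of time (linear axes from 0). Slc7a10 and Gldc are lower at 2 d than in naive mice in both regions and genotypes, and the open circle gives Srr of TiCY at 2 d without the cell that held 96.8% of its counts.

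Olfactory bulb cells of pF, labelled neuroblasts and neurons, were set against the vSVZ neuroblasts of pC. There 3 members were lower, where 40.6% of all genes lay past 2-fold. These were Psat1, at 1.62 and 17.6 CPM, Shmt1, at 4 and 14 CPM, and Shmt2, at 4.22 and 15.5 CPM. Phgdh was at 9.09 and 22.8 CPM, within 2-fold.

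The other genes of the pathway, a list of 53 with folate enzymes, further carriers, users and breakdown enzymes of serine and genes of the amino acid response, were described beside the members. In neuroblasts against qNSC1, 11 of the 47 tested were called, 3 higher and 8 lower, beside 12.4% of all genes, and their median log2 fold change was -0.69, against -0.17 for all genes. With letter as a block 19 were called, a setting for which no share of all genes is given. Cbs, which condenses serine with homocysteine, averaged 26.9 ± 19.1 CPM in neuroblasts and 428 ± 106 CPM in qNSC1 (edgeR adjusted p = 1.4e-04). Slc6a9, a glycine carrier, was at 4.42 and 75.6 CPM, Slc38a3, a glutamine carrier, at 11.7 and 687 CPM, Gcsh, a glycine cleavage protein, at 11.9 and 79.6 CPM and Aldh1l1, a folate enzyme, at 7.07 and 264 CPM. Aldh1l2, its mitochondrial relative, was higher at 106 and 11.8 CPM, Slc38a2, a neutral amino acid carrier, higher at 299 and 25.9 CPM, and Asns, asparagine synthetase, higher at 4.55 and 0.0458 CPM. The number called was 2 to 4 when pA, pB or pC was left out and 14 without pD.

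In oligodendrocytes against qNSC1, 4 of the 47 were higher and 7 lower, beside 11% of all genes called, with a median of -0.93 against -0.24 for all genes. Gatm, which uses glycine to start creatine synthesis, averaged 3865 CPM in oligodendrocytes and 80.8 CPM in qNSC1, and Serinc5, named for serine incorporation into lipids, 1114 and 11.7 CPM. Sfxn1, a mitochondrial serine carrier, had no count in oligodendrocytes and averaged 113 CPM in qNSC1, at least 1450-fold lower (edgeR adjusted p = 6.9e-07). Slc38a2 was higher at 649 and 25.9 CPM, and Cbs, Aldh1l1, Slc38a3 and Sdsl, a serine dehydratase-like gene, were lower. The OLIGO sort called 7 of 45 lower and none higher, beside 6.1% of all genes, Sfxn1 among them at no count against 85.2 CPM (at least 799-fold).

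The NB sort called 2 of 45 higher and 10 lower, beside 11.8% of all genes. With letter as a block it called 17, with no share of all genes given. Aldh1l1 had no count there and averaged 214 CPM in the NSC sort (at least 2180-fold lower), and Cth, which follows Cbs, had none against 23.2 CPM (at least 175-fold). Cbs, Slc6a9, Slc38a3, Mthfd1 and Gatm were also lower and Aldh1l2 was higher. In neuroblasts against qNSC2 of pM and pJ 6 of 47 were lower and none higher, a share near the 9.99% of all genes called there. These were Aldh1l1, Cbs, Slc38a3, Mthfd1, a folate enzyme, Slc3a2, the heavy chain that partners Slc7a10 among others, and Sdsl. Between the other types and sorts edgeR called none of the list, with 1 to 8 genes at an unadjusted p under 0.05 and 0 to 4 called by DESeq2 in each. Over all genes the unadjusted count in these comparisons ran from 141 of 16009 to 2288 of 14915. With letter as a block 1 was called in aNSC against qNSC2 and 1 in TAP against aNSC of WT mice.

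At 2 d in the vSVZ sort, 5 of 49 pathway genes were higher and 3 lower, beside 10.9% of all genes called. Atf4 and Ddit3, transcription factors of the amino acid response, averaged 149 ± 49.7 and 155 ± 52.5 CPM at 2 d and 38.0 ± 15.3 and 38.4 ± 3.25 CPM in naive sorts (SD, n = 2 each, edgeR adjusted p = 2.0e-04 and 1.4e-04). Slc7a8, a neutral amino acid exchanger, was at 17.4 and 0.0433 CPM, Sfxn3, a mitochondrial carrier, at 36.0 and 7.10 CPM and Slc38a1, a glutamine carrier, at 229 and 71.2 CPM. Slc38a3 was lower at 135 and 313 CPM, and Sds and Sdsl, the serine dehydratase pair, lower at 0.443 and 11.7 CPM and at 26.3 and 42.2 CPM. In the striatal sort, Slc38a1 was higher at 49.2 and 0.0650 CPM and Slc38a2 at 90.3 and 0.715 CPM, the 2 called of 50, beside 2.3% of all genes.

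Over the 22 WT sums, the members fell into patterns that are given as a description, since sums of 1 letter share depth and mice. On log2(CPM + 5), Slc7a10 went with Gldc (Pearson r = 0.90) and Slc1a4 (0.83), and Phgdh with Psph (0.70) and Psat1 (0.68). Slc1a5 went most with Shmt2 (0.70), and Shmt1 ran against Psat1 (-0.52). The genes nearest to Gldc were Slc6a11 (0.971), Nwd1 and Fgfr3, and those nearest to Slc7a10 were Ephx2 (0.959), Tnfaip8 and Baalc. Slc1a4 was nearest to Mertk (0.940), Tril and Pfkm, Phgdh to Ckb (0.935), Hsd17b4 and Cd63, Psat1 to Kcnj10 (0.937), Arap2 and Add3, and Psph to Oat (0.868), Gfra1 and Gpam. Shmt1 was nearest to Nop56 (0.847), Wdhd1 and Ddx39, Slc1a5 to Iqgap2 (0.83), Dll4 and Purb, Srr to Slc35a3 (0.850), Fam49b and 4932438A13Rik, and Shmt2 to Naa50 (0.788), Gm10123 and Hspd1.

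Gene positions on GRCm38 bear on the counts of some members. Exons of Srr (chromosome 11, 74906359 to 74925948, minus strand) overlap those of Tsr1 over 1240 bases and those of Smg6 over 126 on the other strand. Exons of Slc7a10 (chromosome 7, 35186385 to 35201114, plus strand) overlap those of Lrp3 over 377 bases, and those of Psph overlap Cct6a, those of Shmt1 overlap Smcr8 and those of Shmt2 overlap Ndufa4l2. Whether reads were counted by strand is not given in the sources used here, so reads of such partners cannot be told apart.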

How the data were processed

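The members and the lists were chosen with earlier results of these data known. Per the submitters' processing notes, STAR and featureCounts were used by the authors on GRCm38 (mm10), with no version or annotation named. The deposited values are counts of reads per gene and cell, not shown to be counts of molecules. The main table holds 2584 cells, and 603 that match no labelled cell were not used. Counts were summed per labelled type, or surface sort, and letter. Letters pA to pF and pH to pM were never tested against each other, because their counting annotation may differ. Sums of 3 or more cells were fitted with edgeR 4.0.16 (TMM, filterByExpr, quasi-likelihood test), adjusted over all genes tested by Benjamini-Hochberg. DESeq2 1.42.0, RLE factors, letter as a replicate block, no filter, sums of 5 or more cells, fits within pA, pB and pE and within pC and pD, and leaving out each letter were alternatives. The method was tested on simulated data. Same-letter sums deviated together, with correlations of 0.148 to 0.527 in WT types and sorts, 0.173 and 0.207 in the astrocyte comparisons of pM and pJ and 0.050 and 0.077 in their other 2. All 10 members were named in the comparisons, with up to 8 called genes of the pathway list by adjusted p and 3 nearest genes each by Pearson r. Depth sets the precision. Promoter letters are RefSeq entries on GRCm38.p6.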

Additional observations from a re-analysis of the deposited data

Results flagged for a closer look

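In 5 of the 30 groups with 4 or more letters, 1 letter lay far from the others. A chance rate of about 1 in 20 would hold for independent groups only. These share letters and cells, so no excess over chance is read from the count. Phgdh stood at 1411 CPM in the qNSC1 of pD, against 361 to 518 CPM in the other letters, and its highest cell held 11.1% of those counts. In the pD neuroblasts Phgdh stood at 413 CPM and Gldc at 17.2 CPM, with 63.1% and 71.4% of the counts in 1 cell. Shmt1 stood at 31.3 CPM in the qNSC1 of pB, with 92.6% of the counts in 1 cell, and at 19.3 CPM in the qNSC2 of pD, with 70.4% in 1 cell.

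In the striatal GLAST sort 3 members moved in opposite directions at 2 d against naive in knockout and TiCY mice, with 1 sum per arm, so the difference was not tested. On log2 ratios of CPM + 5, Slc1a4 was at 1.29 in KO and -0.19 in TiCY, and Psph at 0.86 in KO and -0.85 in TiCY. Srr was at -0.62 in KO and 2.91 in TiCY, where 1 cell held 96.8% of its counts and the level without it was 17.7 CPM.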

How the results depend on the processing

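No direction called in the main fits turned round under any setting run. In neuroblasts against TAP, Phgdh and Psat1 were called lower within pA, pB and pE only or also without pD. Within pC and pD their log2 fold changes were 0.26 and 0.89, not called. Counts under settings other than the main one have no share of all genes beside them. With letter as a replicate block, Phgdh was added in neuroblasts against qNSC1 (6 members), and no other call of a member changed. The single member called in qNSC2 against qNSC1 and in aNSC against qNSC2 became 0 within pA, pB and pE, within pC and pD and in sums of 5 or more cells, and in qNSC2 against qNSC1 also with no filter. Leaving out 1 letter gave 0 to 1 in both. Neuroblasts against TAP had 2 members called by DESeq2, 3 within pA, pB and pE, and 0 to 1 with a letter left out (Phgdh without pD). In neuroblasts against qNSC1, 2 stayed called within pC and pD and 5 to 6 with a letter left out. The NB sort kept 2 to 6 with a letter left out. DESeq2 called 1 member in the ASTRO sort, in aNSC against qNSC2 of pM and pJ and in the striatal 2 d sort. It called 8 in neuroblasts against qNSC2 of pM and pJ, with Shmt1 added. In the vSVZ 2 d sort 3 were called with no filter and 2 without pH. No replicate block was possible for the 2 d fits, since TiCY times hold different letters. RLE factors moved the all-gene median from -0.11 to 0.00 in qNSC2 against qNSC1. Srr without its top cell was chosen after seeing the data. The cause of these shifts was not tested. Groups of 1 letter, Shmt counts held by few cells and 1 residual degree of freedom limit the rest.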
